A study of Mus musculus with 8 samples.

Results

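The fibroblast matrix genes are 10 genes whose products build the fibrous and pericellular matrix between the cells of the heart: *Col1a1*, *Col1a2*, *Col3a1*, *Postn*, *Tnc*, *Ogn*, *Dcn*, *Lum*, *Fn1* and *Fbn1*. They were chosen by symbol, and a peak of acetylated histone was given to a member when the centre of the peak lay nearest to a curated RefSeq transcription start of that gene. By this rule the 10 genes held 70 of the 45980 H3K27Ac peaks placed on chromosomes, and all 10 were among the 15765 genes with a peak. H3K27Ac, acetylation of histone H3 at lysine 27, marks active promoters and enhancers, and ChIP-Seq counts the DNA fragments that carry it.

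The chromatin came from mouse ventricles at postnatal day 7. Control hearts were Arid1a f/f, so both of their *Arid1a* alleles were floxed and carried no Cre. *Arid1a cKO* hearts were aMHC-Cre;Arid1a f/f, with the same floxed alleles and a Cre driven by the alpha myosin heavy chain promoter, which is active in cardiomyocytes. Each genotype gave 2 H3K27Ac libraries and 2 input libraries without antibody, for 8 in all, and whole ventricles were used without sorting. The deposited table gives each peak 1 mean per genotype, on the log2 scale of normalized reads, and no value per library. No error between replicates and no depth of a library can therefore be given, and no test was run, since the table's own comparison columns were not used. Every level below is the authors' mean of 2 libraries. A difference is the *Arid1a cKO* mean minus the Control mean on the log2 scale, and a peak or gene is counted as higher or lower where these means differ by at least 1.5-fold. The table measures acetylation, so it does not check the deletion of *Arid1a* itself.

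In the heart, collagen I and collagen III form the stiff and the extensible fibrils of the interstitium. Both are secreted mostly by fibroblasts, are bound by small leucine-rich proteoglycans that set fibril diameter, and are laid down beside fibronectin and fibrillin fibres. Periostin and tenascin-C are matricellular proteins, which signal to cells more than they bear load and are abundant in young or injured hearts. The question these values address is whether the matrix genes of other heart cells carry more or less H3K27Ac when *Arid1a* is deleted in cardiomyocytes.

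H3K27Ac at the matrix genes was mostly higher in *Arid1a cKO* than in Control ventricles. Of the 70 member peaks, 59 had a difference above 0, against 50.6% of all peaks, 10 were below 0 and 1 was at 0. At least 1.5-fold higher were 18 member peaks, where 12.0% of all peaks were, and at least 1.5-fold lower were 3 member peaks, where 17.3% of all peaks were. The median difference over the member peaks was 0.355, against 0.01 over all peaks. In whole tissue, more cells of a type and more acetylation per cell cannot be told apart.

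Summed over the peaks of a gene, all 10 members were above 0, as were 49.0% of all genes with a peak. *Col3a1* was the only member past the 1.5-fold limit, which 5.48% of all genes exceeded. This call was lost in 6 of 10 alternative settings, with values from 0.49 to 0.55, and *Col1a1* passed the limit at 0.71 in 4 of them. No member was 1.5-fold lower, while 9.55% of all genes were. *Col1a1* stood just under the limit at 0.58, and *Col3a1* just past it at 0.60. The members lay between the 79.3rd percentile of all genes, held by *Fbn1*, and the 94.7th, held by *Col3a1*. The median over the 10 genes was 0.39, against -0.0044 over all genes.

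**Figure D1:**
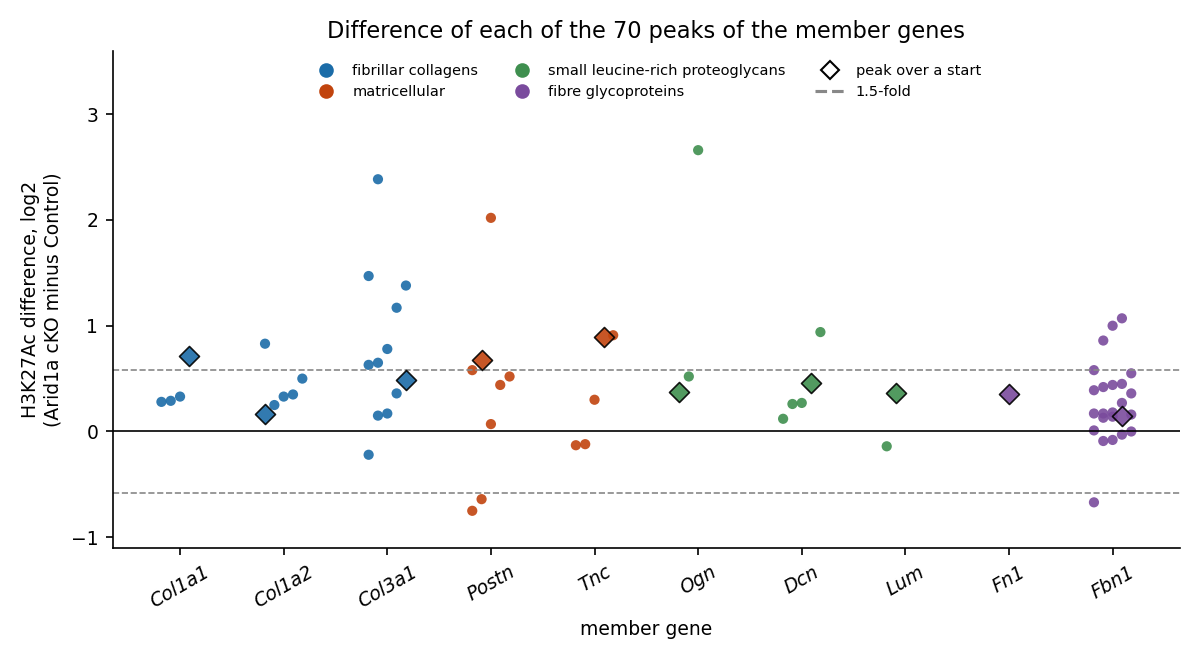
The 70 peaks of the 10 member genes, with the gene on the horizontal axis and the log2 difference of the group means (*Arid1a cKO* minus Control) on the vertical axis. Each point is 1 peak, coloured by the role of the gene, diamonds are peaks over a transcription start, dashed lines mark 1.5-fold, and the *Col3a1* peak with a Control mean under 3 reads is drawn at its lower bound. All 10 diamonds lie above 0, and 3 points lie below the lower dashed line.

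Each member had 1 peak over a transcription start of its own, and in 7 of the 10 genes this was its strongest peak. The start peaks depend least on a choice of distance, since each covers a start of its gene. The centre of the *Fn1* start peak also lay in the promoter of *Apol7d*, so a start peak can be shared. The bases just before the start were read for 5 members in the RefSeq promoter table of GRCm38.p6, the assembly that mm10 names, namely *Col1a2*, *Col3a1*, *Tnc*, *Ogn* and *Fbn1*. *Col1a1*, *Dcn*, *Lum* and *Fn1* had no entry there. The stretches shown lie inside the start peaks of the members and were chosen because they hold a core promoter motif or the TEAD core, the site of the factors through which YAP acts. Searched on both strands in 250 bases were the TATA box (TATAAA), the CCAAT box (CCAAT), the TEAD core (CATTCC, or GGAATG on the other strand), the AP-1 site (TGACTCA), the E-box (CACGTG) and the MEF2 core. Capitals mark the matches, and each stretch runs 5′ to 3′ on the strand of its gene. The stretches are chr6:4505468-4505617 (plus strand) for *Col1a2*, chr1:45311338-45311487 (plus) for *Col3a1*, chr4:64047016-64047165 (minus) for the outer start of *Tnc*, and chr13:49607865-49608014 (plus) for *Ogn*.
Col1a2: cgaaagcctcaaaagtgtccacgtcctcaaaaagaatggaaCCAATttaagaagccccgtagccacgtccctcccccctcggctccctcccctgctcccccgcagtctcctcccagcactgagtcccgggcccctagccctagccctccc
Col3a1: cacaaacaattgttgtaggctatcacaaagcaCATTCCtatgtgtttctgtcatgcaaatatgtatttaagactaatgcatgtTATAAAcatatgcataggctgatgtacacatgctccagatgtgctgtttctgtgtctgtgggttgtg
Tnc: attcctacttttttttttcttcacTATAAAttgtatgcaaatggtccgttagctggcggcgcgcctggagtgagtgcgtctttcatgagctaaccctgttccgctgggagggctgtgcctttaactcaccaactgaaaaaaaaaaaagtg
Ogn: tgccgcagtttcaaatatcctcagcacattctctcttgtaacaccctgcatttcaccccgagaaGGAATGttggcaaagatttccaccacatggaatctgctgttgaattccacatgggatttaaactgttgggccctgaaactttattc

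The TATAAA matches of *Tnc*, at its outer start, and *Col3a1* began 126 and 117 bases before the start, farther than a TATA box usually lies. Before the inner start of *Tnc* the same match lay at 205 bases. Variants of the TATA box were not searched for, and TATATAAG stands nearer to that inner start. The CCAAT box of *Col1a2* began 109 bases before the start. The TEAD core stood 168 bases before the start of *Col3a1* and 86 before that of *Ogn*, whose window also held a TATA box 227 bases before the start, outside the stretch shown. The window of *Fbn1* held no match. Of the 32851 windows in the promoter table, 12.4% held the TATA box, 33.9% the CCAAT box and 12.6% the TEAD core. The AP-1 site stood in 4.46%, the E-box in 6.02% and the MEF2 core in 0.508%, and none of these 3 was matched in these windows. A match is a description of the letters and not evidence of binding.

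Over their transcription starts all 10 members carried more H3K27Ac in the *Arid1a cKO* mean than in the Control mean, with differences from 0.15 to 0.89 and a median of 0.415. Of the start peaks of all genes, 50.1% were above 0, and their median was 0.01. At least 1.5-fold higher were the start peaks of *Tnc*, *Col1a1* and *Postn*, 3 of 10, against 4.43% of the start peaks of all genes. The 95th percentile of the start peaks of all genes was 0.55, under the limit, so these 3 exceeded it by construction. The order of the members by level differed from their order by difference. In reads per kb of peak, the Control levels ran from 106 at *Fbn1* through *Fn1*, *Dcn*, *Col1a2*, *Ogn*, *Lum*, *Postn*, *Col3a1* and *Col1a1* to 9.28 at *Tnc*. *Fbn1* had the densest start peak of the members and the smallest difference, and *Tnc* had the sparsest peak and the largest difference. In *Arid1a cKO* the same genes stood at both ends, and *Postn* stood between *Dcn* and *Ogn* at 42.5 reads per kb. With no spread between libraries, this is an order of means only.

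**Figure D2:**
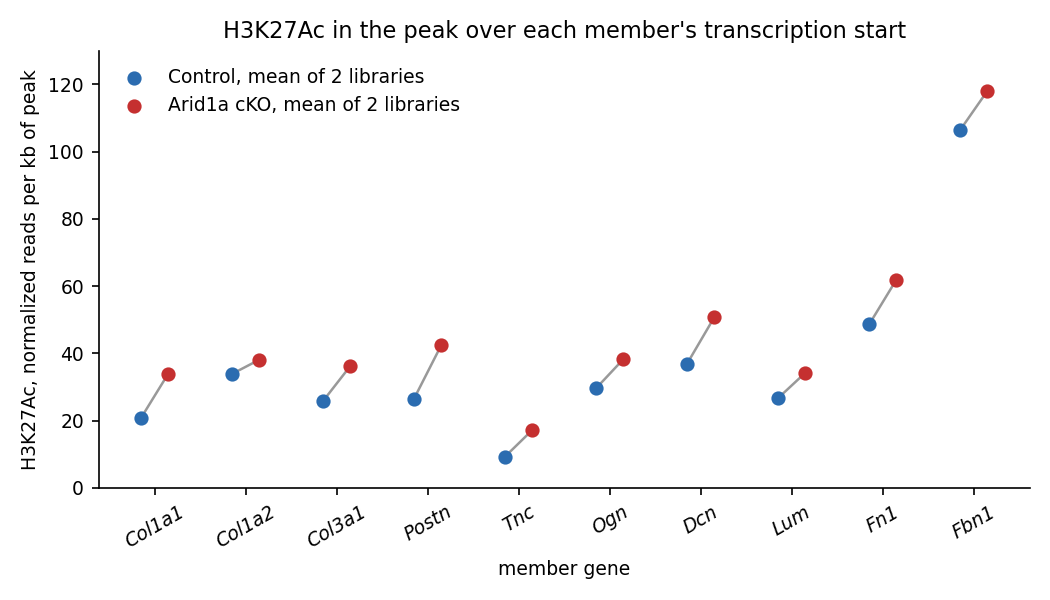
H3K27Ac in the peak over the transcription start of each member, with the gene on the horizontal axis and normalized reads per kb of peak on the vertical axis. Blue points are Control and red points *Arid1a cKO*, each the authors' mean of 2 libraries and joined by a grey line. Every red point lies above its blue point, and *Fbn1* stands highest at 106 and 118 reads per kb.

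The fibrillar collagens come first. *Col1a1*, which encodes the alpha 1 chain of collagen I, was covered almost from end to end by 1 peak at chr11:94932772-94952252, which was 19.5 kb wide and wider than 99.7% of all peaks. Its mean was 405 normalized reads in Control and 662 in *Arid1a cKO*, a difference of 0.71 that lay at the 97.1st percentile of all start peaks. The other 3 *Col1a1* peaks were upstream, with centres between 22.7 and 7.54 kb before the start, and their differences of 0.33, 0.29 and 0.28 were alike. The gain of *Col1a1* in summed reads, from 612 to 915, thus stood mainly in the broad peak, which held 66.1% of the Control reads of the gene.

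*Col1a2* encodes the alpha 2 chain that joins 2 alpha 1 chains in each collagen I molecule, but its start peak differed much less. At chr6:4502147-4507167 it had 170.1 reads in Control and 191 in *Arid1a cKO*, a difference of 0.17. The strongest *Col1a2* peak was not the start peak but an intergenic one 16.5 kb upstream at chr6:4487291-4491040, with means of 172 and 220 reads and a difference of 0.35. The next peak, 21.5 kb upstream at chr6:4482961-4485323, was the only *Col1a2* peak past the limit, with 44.0 reads in Control, 78.2 in *Arid1a cKO* and a difference of 0.83. All 6 *Col1a2* peaks were above 0, and summed over them the reads went from 540.5 to 690.4, a difference of 0.35. The 2 genes of collagen I therefore differed most at different places, the first over its body and the second upstream.

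*Col3a1*, the gene of the single chain of collagen III, had 12 peaks and 7 of the 18 higher ones. Its start peak at chr1:45310759-45316865 had 158 reads in Control and 221 in *Arid1a cKO*, a difference of 0.49 and under the limit. The 7 higher peaks were all distal. Of these, 6 lay upstream between 279.6 and 7.50 kb before the start, and 1 lay in an intron 29.7 kb after it. Summed over its 9 upstream peaks other than the start peak, reads went from 209 to 325, a difference of 0.63. The intron peak at chr1:45340879-45341643 had a Control mean of 2.89 reads, at or under the 3 reads treated as a floor, and 15.7 in *Arid1a cKO*, so it was at least 5.22-fold higher. With that peak at its bound, the median over the 70 member peaks stayed at 0.355. A single *Col3a1* peak was below 0, at -0.22 and 268 kb upstream, with 26.5 and 22.8 reads.

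The upstream region of *Col3a1* held a run of peaks with differences over 1. They were centred 35.9, 20.8 and 7.50 kb before the start. Their differences were 1.47, 1.38 and 1.17, from Control means of 12.0, 13.6 and 5.28 reads to 33.1, 35.5 and 11.9 reads. Peaks 12.2 and 2.18 kb upstream in the same stretch had differences of 0.63 and 0.15, so neighbours differed unequally. *Col5a2*, which encodes a chain of the collagen V that seeds fibrils and lies next to *Col3a1*, had a start peak with a difference of 0.37, from 141 to 182 reads.

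The matricellular genes had peaks of both signs, as did *Col3a1*, *Lum* and *Fbn1*. *Postn* encodes periostin, which is made by fibroblasts and valve cells and aids collagen crosslinking. Its start peak at chr3:54357623-54363055 spanned both of its curated starts and had 144 reads in Control and 231 in *Arid1a cKO*, a difference of 0.68. The other 7 *Postn* peaks together went from 542 to 584 reads, a difference of 0.11, and their single differences had both signs. The strongest, 116 kb after the start at chr3:54473544-54481361, had means of 208 and 282 reads and a difference of 0.44. A weak intergenic peak 52.6 kb after the start was higher by 2.02, from 4.2 to 17 reads.

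The lower *Postn* peaks were an intergenic one 74.8 kb after the start, at chr3:54434094-54437649, and one 84.9 kb before it, at chr3:54273226-54275554 in an intron of the neighbouring calcium channel gene *Trpc4*. The first had 154 reads in Control and 91.8 in *Arid1a cKO*, a difference of -0.75, and the second 59.7 and 38.3 reads, a difference of -0.64. Just 260 bases before the first of these lay a peak with the opposite sign, whose means were 38.6 and 57.7 reads and whose difference was 0.58. Without both lower peaks the summed difference of *Postn* would be 0.54, where it was 0.25 with them.

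*Tnc* encodes tenascin-C, a matrix protein of embryonic and injured tissue, and had the least H3K27Ac of the members by summed reads. Its start peak at chr4:64045355-64047644 had 21.3 reads in Control and 39.4 in *Arid1a cKO*, a difference of 0.89 and the largest at a start. An intron peak 44.0 kb after the start had a difference of 0.91, on means of 3.78 and 7.11 reads that were close to the floor. The strongest *Tnc* peak lay 30.6 kb upstream and had means of 58.9 and 72.5 reads and a difference of 0.30. Both remaining peaks, at -0.13 and -0.12, had means under 8 reads in each group. The larger differences of *Tnc* were thus seen where its reads were few.

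The small leucine-rich proteoglycans bind collagen fibrils. *Dcn*, the gene of decorin, had its start peak at chr10:97477477-97484606, with 263 reads in Control, 362 in *Arid1a cKO* and a difference of 0.46. A peak 9.27 kb upstream at chr10:97468156-97472306 differed more, by 0.94, from 52.0 to 99.7 reads. The other 3 *Dcn* peaks had differences between 0.12 and 0.27. All 5 *Dcn* peaks were above 0, and the gene summed to 353 and 506 reads, a difference of 0.52.

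*Lum*, the gene of lumican, lies in the same cluster and showed less. Its start peak at chr10:97564213-97568082 had 103 and 133 reads, a difference of 0.36, and its other peak, 28.0 kb upstream, was at -0.14 with 15.7 and 14.2 reads. *Kera*, the keratocan gene next to *Lum*, was given no peak. *Epyc*, the epiphycan gene beyond it, had no start peak. Its peaks were at 1.28, from 37.8 to 91.8 reads, and 0.67, from 31.6 to 50.2 reads. The first of these lay 18.3 kb before the start of *Epyc* and almost as near to that of *Kera*. By this assignment the largest differences of the cluster lay at a gene that is not a member.

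*Ogn* encodes osteoglycin, also called mimecan, and lies inside an intron of the centromere gene *Cenpp*. Its start peak at chr13:49606123-49609683 held 89.4% of its Control reads, with means of 105 and 136 reads and a difference of 0.37. The largest difference of any member peak lay 4.39 kb upstream of it, at chr13:49602815-49604427, with 4.2 reads in Control and 26.5 in *Arid1a cKO*, a difference of 2.66. At the starts of its neighbours in the same proteoglycan cluster the difference was 0.50 at *Omd*, above that of *Ogn*, and 0.21 at *Aspn* and 0.09 at *Ecm2*, below it. A distal *Ecm2* peak was at -0.80, so the cluster was not uniform.

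Fibronectin and fibrillin-1 form the fibres on which other matrix is assembled. *Fn1*, the fibronectin gene, had a single peak by the rule used here, over its start at chr1:71650233-71656202. The means of this peak were 290.0 reads in Control and 369.6 in *Arid1a cKO*, a difference of 0.35. With the nearest start taken from protein-coding transcripts only, *Fn1* had 10 peaks and a difference of 0.43. *Fbn1*, the fibrillin-1 gene, had 24 peaks, more than any other member, of which 20 lay downstream of its start along the gene and 4 before it. The start peak at chr2:125503720-125507468 had 399 and 443 reads, a difference of 0.15 and the smallest of the 10 start peaks. Strong intron peaks centred 53.5 and 33.3 kb inside the gene went from 221 to 290.0 reads and from 388 to 425 reads, differences of 0.39 and 0.13.

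Higher by the limit at *Fbn1* were 3 weak intron peaks 9.56, 18.9 and 88.2 kb inside the gene, with differences of 0.86, 1.0 and 1.07. Their Control means were 11.8, 9.71 and 5.43 reads. An intron peak 73.6 kb inside the gene, at chr2:125431492-125434157, was the third lower member peak, with 53.4 reads in Control and 33.6 in *Arid1a cKO*, a difference of -0.67. The 4 peaks before the start ranged from -0.08 to 0.17. The summed reads of the gene went from 1601 to 1867, a difference of 0.22 and the smallest of the members. A further 4 peaks within the body of *Fbn1* lay nearest to the start of *Dut*, the dUTPase gene beyond its end, with differences of 1.10, 0.44, 0.50 and 0.02.

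Across the set, the differences of 1 or more were all in weak peaks away from a start, and the strong peaks were more uniform in direction. As a class the start peaks did not differ less, with a median of 0.415 and 3 of 10 higher. Of the start peaks of all genes, 4.43% were higher. Of the 60 member peaks away from a start, 49 were above 0 and 15 at least 1.5-fold higher, with a median of 0.33. Of all peaks away from a start, 50.8% were above 0 and 14.7% higher, with a median of 0.02. The 8 member peaks with differences of 1 or more had Control means between 2.89 and 13.6 reads, while the median peak of the table had 44.3 reads over both groups. Low peaks differ widely in this table as a whole: among all peaks with a concentration (the log2 mean over both groups) under 4, 25.0% were higher and 24.8% lower.

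**Figure D3:**
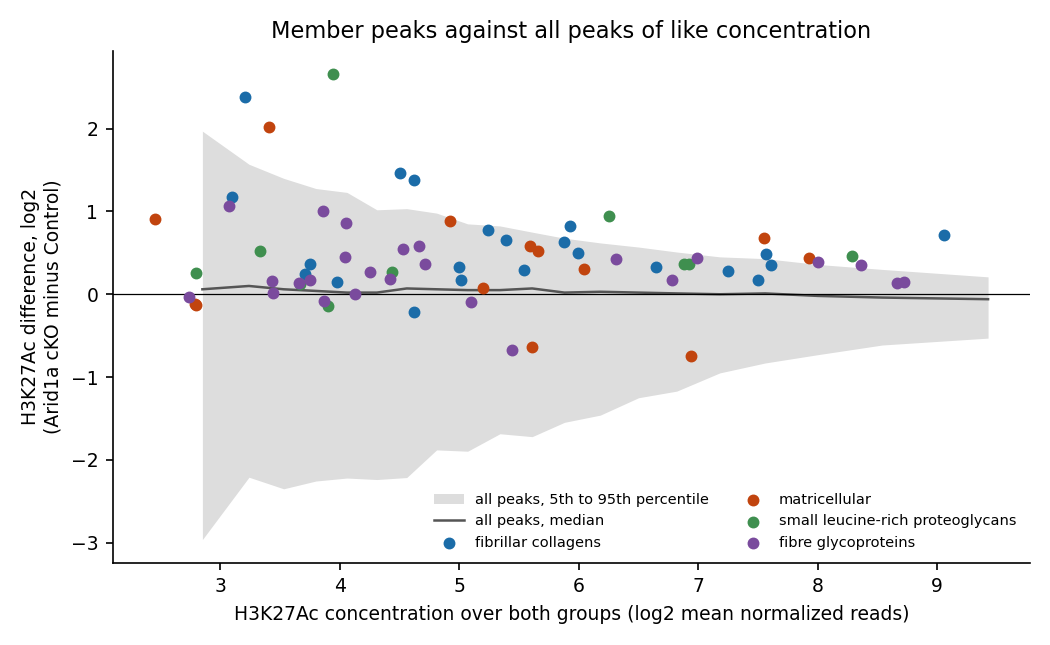
Difference of each member peak against its H3K27Ac concentration, the log2 mean of normalized reads over both groups. The grey band spans the 5th to the 95th percentile and the dark line the median of all peaks in 20 classes of concentration, and the coloured points are the 70 member peaks. The band narrows to the right, and 20 of the 21 member peaks at a concentration of 6 or more lie above 0.

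Among the strong peaks the direction was most even. Of the 21 member peaks with a concentration of 6 or more, 20 were above 0, against 47.0% of all peaks of that class. Their median was 0.36, against -0.01, and 3 were higher by the limit, as were 2.70% of all peaks of the class. The exception was the lower *Postn* peak 74.8 kb after the start. Between 4 and 6, 22 of 27 were above 0 with a median of 0.45, against 53.3% and 0.05 for all peaks of that class. Under 4, 17 of 22 were above 0 with a median of 0.21, against 52.7% and 0.07. Higher by the limit in these classes were 8 of 27 and 7 of 22, against 14.6% and 25.0% of all peaks.

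**Figure D4:**
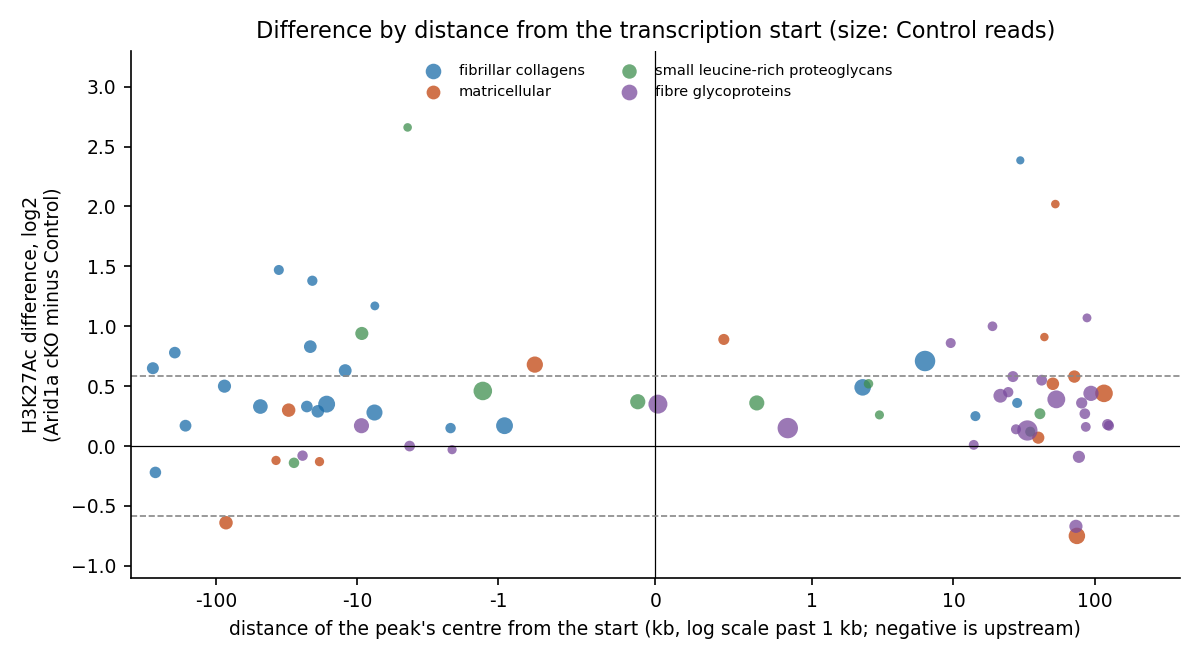
Difference of each member peak by the distance of its centre from the nearest start of its gene, in kb on a scale that is linear within 1 kb and logarithmic beyond, with negative values upstream. Points are coloured by role and sized by the Control reads, and dashed lines mark 1.5-fold. The points above 1 are small and lie from 35.9 kb upstream to 88.2 kb downstream, and the 3 points below the lower line lie over 50 kb from a start.

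The member peaks stood mostly outside promoters: 32 were intergenic, 32 in introns, 4 in promoters and 2 in coding exons, by the position of their centres. By distance, the 11 peaks within 10 kb that did not cover a start had a median of 0.28, the 28 from 10 to 50 kb 0.33, and the 21 over 50 kb 0.36. All 3 lower peaks belonged to the last class. The distance classes thus differed little in their medians.

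The DNA of the differing distal peaks was read from the GRCm38.p6 reference sequence. Stretches from higher peaks were taken from those with the largest differences among the peaks that held a TEAD core. Beside them, 1 stretch each from a lower *Postn* and the lower *Fbn1* peak is shown. Other peaks with differences of 1 or more held no TEAD core. They lay 52.6 kb downstream at *Postn*, 7.50 kb upstream and 29.7 kb downstream at *Col3a1*, and 18.9 and 88.2 kb inside *Fbn1*. The match stands in capitals, all stretches are given on the plus strand, and GGAATG is the TEAD core read on the minus strand. They are chr13:49603112-49603177 for the *Ogn* peak 4.39 kb upstream, and chr1:45275637-45275702 and chr1:45290588-45290653 for the *Col3a1* peaks 35.9 and 20.8 kb upstream. Next come chr10:97469805-97469870 for the *Dcn* peak 9.27 kb upstream, chr3:54434836-54434901 for the *Postn* peak 74.8 kb downstream, and chr2:125433388-125433457 for the *Fbn1* peak 73.6 kb inside the gene, whose capitals are a MEF2 core.
Ogn higher peak: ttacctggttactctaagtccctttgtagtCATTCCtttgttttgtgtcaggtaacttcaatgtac
Col3a1 higher peak, farther: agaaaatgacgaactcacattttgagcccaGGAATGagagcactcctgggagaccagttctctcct
Col3a1 higher peak, nearer: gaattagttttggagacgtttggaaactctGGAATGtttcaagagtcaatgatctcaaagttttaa
Dcn higher peak: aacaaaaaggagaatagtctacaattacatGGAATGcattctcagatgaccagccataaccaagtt
Postn lower peak: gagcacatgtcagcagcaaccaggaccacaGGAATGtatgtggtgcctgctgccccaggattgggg
Fbn1 lower peak: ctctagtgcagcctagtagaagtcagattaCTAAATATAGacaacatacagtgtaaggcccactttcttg

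The TEAD core was thus present in some higher and some lower member peaks. The MEF2 core stood in 5 member peaks, read over their whole length. Besides the lower *Fbn1* peak, these were *Col3a1* peaks at 0.78 and 0.49, a *Col1a1* peak at 0.33 and another *Fbn1* peak at 0.45. The matches shown for *Ogn*, *Dcn*, *Postn* and *Fbn1* lie outside the central 500 bases counted next. In the central 500 bases, 22 of 70 member peaks held the TEAD core, a share of 31.4%, against 26.4% of all peaks. The AP-1 site stood in 8.57% of member peaks and 9.63% of all peaks, the E-box in 8.57% and 7.96%, and the MEF2 core in 1.43%, a single peak, and 2.58%. The shares of the members were close to those of all peaks.

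Other genes of the matrix were taken from lists by role. The shares of all genes to set beside each list are 49.0% above 0, 5.48% higher and 9.55% lower. Of the 14 other fibrillar and fibril-associated collagens, 12 were above 0 with a median of 0.45, 3 were past the limit upward and none downward. These were *Col12a1*, a collagen that decorates fibrils, at 1.02, *Col2a1*, the cartilage collagen, at 0.66 on 8.69 and 13.7 reads, and *Col15a1*, a collagen near basement membranes, at 0.62. *Col15a1* was higher in 9 of its 12 peaks, against 12.0% of all peaks. All 13 start peaks of this list were above 0, against 50.1% of the start peaks of all genes. The 10 basement membrane genes, which are expressed by several heart cell types, were split evenly by summed reads, with 5 above 0 and a median of -0.0023. By peaks they leaned upward, with 45 of 68 above 0, 12 higher and 2 lower, against 12.0% higher and 17.3% lower of all peaks.

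Of the 17 genes of collagen processing and crosslinking with a peak, 13 were above 0 and the median was 0.11. *P3h2*, a prolyl hydroxylase, was higher at 0.68, and so was *Lox*, the lysyl oxidase that crosslinks collagen, at 0.66. *P4ha2*, another prolyl hydroxylase, was lower at -0.80. The other small leucine-rich proteoglycans had 5 of 7 above 0 and a median of 0.30, with *Epyc* higher at 1.03. The elastic fibre genes had 8 of 14 above 0 and a median of 0.033. Among them *Mfap4*, a microfibril protein, was at 0.88 and *Ltbp2*, a latent TGF-beta binding protein, at -1.03 on 16.4 and 8.06 reads. By peaks, 20 of 44 of the elastic fibre list were above 0, with 5 higher and 9 lower, against 12.0% and 17.3% of all peaks.

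The other matricellular genes had 6 of 9 above 0 and a median of 0.29. *Ccn5* was at 1.78 and *Thbs1*, the thrombospondin-1 gene, at 1.76, but their Control sums were only 3.18 and 7.14 reads, and *Thbs2* was at 0.60. Of the 7 matrix degradation genes with a peak, 5 were above 0 and the median was 0.23, with the protease *Adamts12* at 0.61 and *Timp3*, an inhibitor of matrix proteases, at -0.61. The 12 genes of TGF-beta signalling, the pathway that drives collagen synthesis, had 7 above 0 and a median of 0.032, and *Tgfbr3*, a coreceptor, was lower at -0.74. By peaks, 37 of 70 of the TGF-beta list were above 0, with 9 higher and 11 lower, against 12.0% and 17.3% of all peaks. The gene medians of the matrix lists were thus highest in the list of other collagens and near 0 for the TGF-beta pathway, the elastic fibres and the basement membrane.

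**Figure D5:**
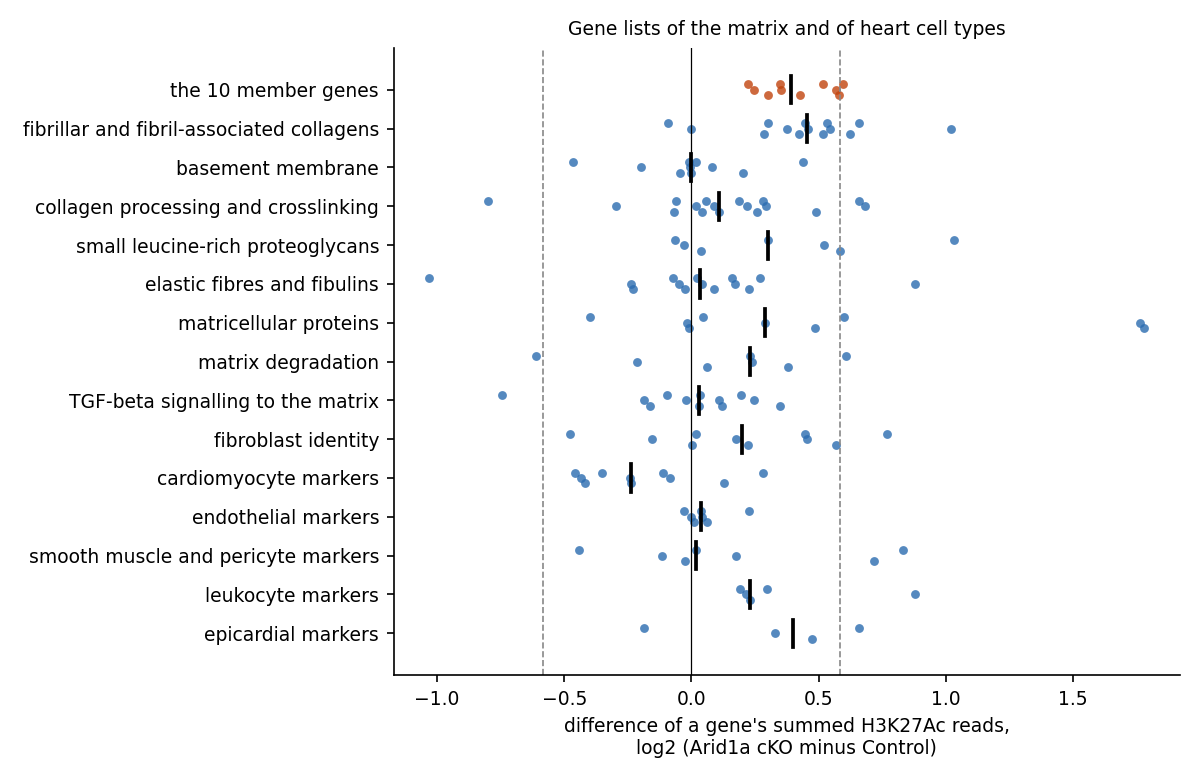
Difference of the summed H3K27Ac reads of each gene (horizontal axis, log2, *Arid1a cKO* minus Control) for the 10 members and 14 gene lists (vertical axis). Each point is 1 gene with a peak, black bars are medians, and dashed lines mark 1.5-fold. The members (orange) and the other collagens lie mostly right of 0, and the cardiomyocyte markers mostly left of it. The list labelled fibrillar and fibril-associated holds all of these other collagens.

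Markers of the heart's cell types were set beside the members. The fibroblast genes had 8 of 10 above 0 and a median of 0.20, with *Scara5* higher at 0.77. *Pdgfra* and *Tcf21*, the defining receptor and transcription factor of cardiac fibroblasts, stood at 0.46 and 0.45, from 224 to 307 and from 844 to 1150.0 reads. *Twist1* was at 0.57, *Ddr2* at 0.22 and *Meox1* at 0.18. *Thy1* at 0.020 and *Dpt* at 0.0022 were near 0, and *Pi16* at -0.16 and *Gsn* at -0.48 were below it. By peaks the list was mixed, with 40 of 57 above 0, 15 higher and 10 lower, against 12.0% higher and 17.3% lower of all peaks. All 10 genes had a peak, and summed over the list the reads went from 4790.1 to 5388, a difference of 0.17, while those of the members went from 4800 to 6194, a difference of 0.37.

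The cardiomyocyte markers had 2 of 10 above 0 and a median of -0.24, and their summed reads went from 24444 to 21635. Endothelial markers were at a median of 0.038 with 5 of 7 above 0, on sums of 14840 and 15034 reads. Smooth muscle and pericyte markers were at 0.017 with 4 of 7 above 0, on sums of 2471 and 2942 reads. Among these *Acta2*, smooth muscle actin, was at 0.83 and *Tagln*, transgelin, at 0.72. *Cnn1* at -0.44, *Myh11* at -0.12 and *Rgs5* at -0.025 were below 0. Leukocyte markers had 5 of 5 above 0 and a median of 0.23, with *Ptprc*, the CD45 gene, at 0.88, but sums of only 287 and 365 reads, and *Adgre1* and *Lyz2* had no peak. Epicardial markers had 3 of 4 above 0 and a median of 0.40, on sums of 1840.3 and 2081 reads, and *Upk3b* had no peak. *Aldh1a2*, a retinoic acid enzyme, was at 0.66, but *Wt1* was at -0.19, from 993 to 873 reads. Of the 10 epicardial peaks with a concentration of at least 5, 5 were above 0, with a median of 0.025. By gene, most markers of fibroblasts, leukocytes, the endothelium and the epicardium were above 0, like the members, though the endothelial median was near 0. The smooth muscle and pericyte markers were split, and most cardiomyocyte markers were below 0. The part of cell numbers in the values of the members was not tested.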

How the data were processed

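BWA 0.7.17-r1188 was the authors' aligner and mm10 their genome. The authors called H3K27Ac peaks with HOMER against merged inputs, required a peak in more than 1 sample, and obtained concentrations from DiffBind 2.12.0 with version 1.24.0 of DESeq2. The deposited concentrations used here are log2 values of a peak's mean normalized reads, over all H3K27Ac libraries and per group. How libraries were scaled and how input was treated is not given in the sources used here. The table also holds the authors' fold change, p-value and FDR of each peak, which were not used. It has 0 columns of per-sample values, so no test was run and the depth per library is unknown.

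Of 45987 peaks, 7 on unplaced sequences were left out. Peaks were joined by their centre to the nearest start among 45756 curated RefSeq transcripts of GRCm38.p6, which matched all 10 members. Gene values are log2 ratios of normalized reads summed over the peaks of a gene. A group mean of 3 reads or less was treated as a floor. Promoters reached from 1000 bases before to 100 after a start. Genes named outside the members are those of each list past 1.5-fold, at most 3 each way, and neighbours in the same locus. Named after their values or positions were seen were the other fibroblast markers, *Wt1*, *Cnn1*, *Myh11* and *Rgs5*. So were *Adgre1*, *Lyz2*, *Upk3b*, *Trpc4*, *Dut*, *Cenpp* and *Apol7d*. List genes without a peak were *Loxl2*, *Fmod*, *Kera*, *Efemp1*, *Spp1*, *Tnn*, *Timp1*, *Adgre1*, *Lyz2* and *Upk3b*. Members, lists and neighbours were chosen with earlier results of these data known. A promoter sequence of 1 further member is not reported here. Assignment and counting were tested on simulated data. Python 3.11.15, numpy 2.4.6, pandas 2.3.3 and matplotlib 3.10.9 were used.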

Additional observations from a re-analysis of the deposited data

How the results depend on the processing

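Under 10 alternatives for each of the 10 genes, all 100 differences stayed above 0, and 73 kept their side of the 1.5-fold limit and moved by less than 1.5 times. The median over member peaks stayed between 0.33 and 0.37 under each of its alternatives. The higher peaks numbered 39 where the means had to differ by only 25% and 8 at 2-fold, where all peaks gave 23.6% and 4.57%, and the lower ones 0 at 2-fold, where all peaks gave 10.6%. Among peaks with a concentration of at least 5, 7 of 35 were higher, against 5.11% of all such peaks. With the nearest start taken from all RefSeq transcripts, 1 peak of 59 was lower, where 17.3% of all peaks were. Peaks over a gene or the 5 kb before it gave 10 higher and 1 lower of 44, against 12.0% and 17.3% of all peaks.

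Most of these alternatives change by construction which peaks count for a gene, while adding 3 reads to each mean keeps the same peaks. For *Col3a1* the call was lost with a concentration of at least 5 (0.53), with 3 reads added to each mean (0.55), with protein-coding starts (0.53), over the gene and 5 kb before it (0.52), and in its strongest or start peak (0.49 in each). *Col1a1* passed the limit at 0.71 with all RefSeq starts, over the gene, in its strongest peak and in its start peak, and was 0.31 as the median of its peaks. *Postn* was 0.52 with all RefSeq starts, 0.16 within 100 kb, 0.68 over the gene and in its start peak, 0.48 as a median and 0.44 in its strongest peak. *Tnc* was 0.89 over the gene and in its start peak. *Ogn* was 0.37 with a concentration of at least 5, in its strongest peak and in its start peak. *Dcn* was 0.27 with protein-coding starts and as a median. *Col1a2* was 0.18 over the gene and 0.17 in its start peak, and *Lum* was 0.11 as a median. In whole peaks, the share of member peaks with a motif was 67.1% for the TEAD core and 27.1% for the AP-1 site. It was 21.4% for the E-box and 7.14% for the MEF2 core. Whole peaks are longer than the central 500 bases, and the share in whole peaks was not computed for all peaks.

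No paired analysis was possible because the table holds group means and no value per library, and no replicate was left out for the same reason. The depth of each library is unknown, which limits the weakest peaks most.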
